A study of Mus musculus with 2 samples.

Results

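Messenger RNAs of 9 enzymes of the citric acid cycle were examined in skeletal muscle of RXRγ mice and of control mice. The members were taken by gene symbol and are Cs, Idh2, Idh3a, Idh3b, Idh3g, Ogdh, Suclg1, Fh1 and Mdh2. The platform annotation names 20 of the 34958 probe sets with a single gene symbol for them, a probe set being the oligonucleotides that the array devotes to 1 transcript. All 9 genes were measured, out of 3780 genes for which at least 1 probe set read above 250 array units on the brighter array. RXRγ mice carry the RXRγ coding sequence under the human α-actin promoter, which drives it in skeletal muscle, and the animals on the array came from a single transgenic line. Control mice were non-transgenic. Mice of both genotypes were C57BL6 females at 4 months of age. RNA was pooled within each genotype before hybridization to 1 array, with 5 animals to a pool by the series description and 3 by the sample labels. Since each genotype has only 1 array, the values have no error and no test between the genotypes was possible.

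The citric acid cycle is the mitochondrial pathway that oxidizes acetyl-CoA derived from carbohydrate, fat and amino acids, and that passes the electrons as NADH and FADH2 to the respiratory chain. In skeletal muscle its enzymes are most abundant in oxidative fibres, and the activity of citrate synthase is a common measure of mitochondrial content. RXRγ is a nuclear receptor that binds DNA together with partners such as the PPARs and LXRs, whose target genes include many of lipid and glucose metabolism.

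The mRNA of Idh2 was lower in muscle of RXRγ mice, whereas those of the other 8 enzymes differed by less than 0.4 on the log2 scale, the threshold used for all genes. Idh2, the mitochondrial isocitrate dehydrogenase that makes NADPH, gave 304.9 array units in RXRγ mice and 1224 in control mice, a 4.02-fold difference. None of the 9 genes was higher by the threshold and 1 was lower. Over all 3780 genes, 16.8% were higher and 20.1% were lower by the same rule. All 9 genes lay among the 903 genes with a mean signal above 1000 on the brighter array, Idh2 through the control array alone. Of those 903 genes, 14.4% were higher and 22.9% were lower. The count of 1 of 9 was therefore no larger than the share over all genes. Taking RXRγ over control mice, the median log2 ratio was -0.06 over the 9 enzymes and -0.04 over all genes. Fewer cells of a type and less RNA per cell cannot be told apart in RNA of whole muscle.

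**Figure D1:**
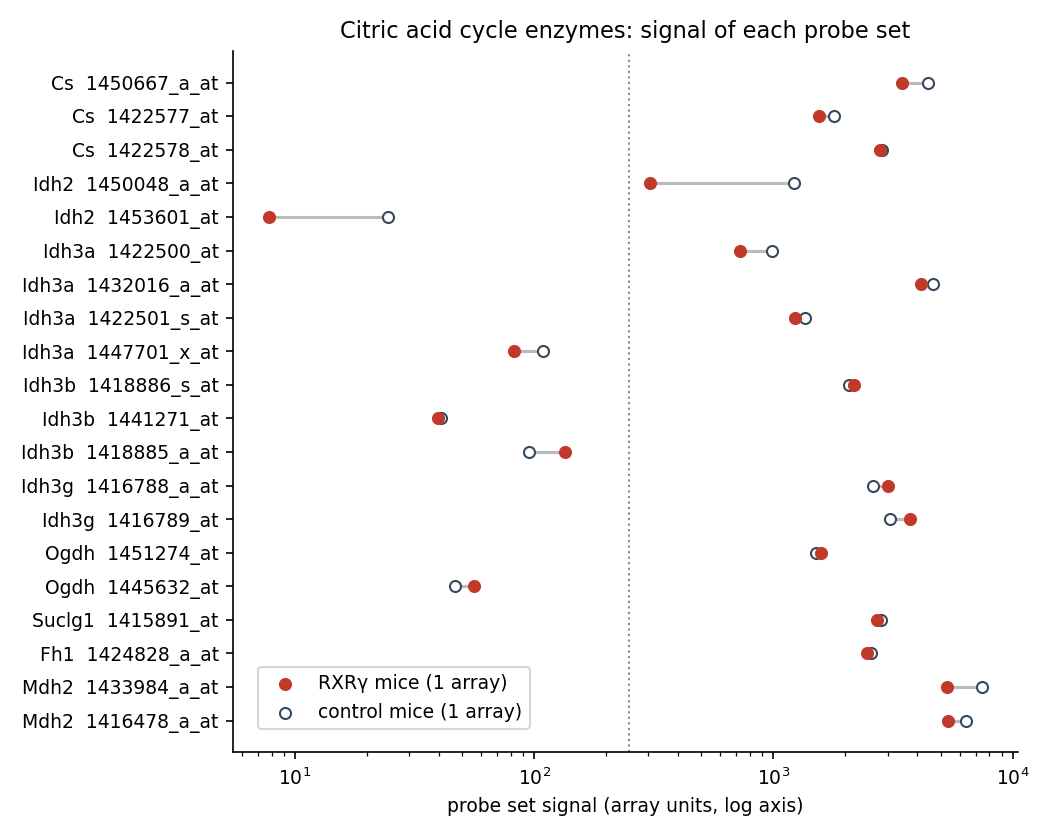
Signal of each of the 20 probe sets of the 9 citric acid cycle enzymes on the array of RXRγ mice (filled circles) and of control mice (open circles), in array units on a log axis, with a dotted line at 250. Idh2 has the widest gap among the 15 probe sets above 250, at 304.9 in RXRγ mice and 1224 in control mice.

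Cs encodes citrate synthase, which joins acetyl-CoA and oxaloacetate in the entry step of the cycle. Its mean signal was 2591 in RXRγ mice, against 3024 in control mice (log2 ratio -0.20). The probe set 1422578_at had 2798 in RXRγ mice and 2843 in control mice, 1422577_at had 1544 in RXRγ mice and 1787 in control mice, and 1450667_a_at had 3431 in RXRγ mice and 4442 in control mice. All 3 lay lower in RXRγ mice, with log2 ratios from -0.37 to -0.02, and none passed the threshold.

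Isocitrate is oxidized by 2 different mitochondrial enzymes. The NAD-dependent enzyme, isocitrate dehydrogenase 3, is the one generally assigned to the cycle, and is built of a catalytic α subunit with β and γ subunits. The α subunit, Idh3a, averaged 2033 in RXRγ mice and 2338 in control mice (log2 ratio -0.25). Its 3 probe sets above 250 ran from -0.44 to -0.14, and only 1422500_at (727.6 in RXRγ mice and 989.7 in control mice) was past the threshold by itself. Its brightest probe set, 1432016_a_at, had 4141 in RXRγ mice and 4667 in control mice. The β subunit, Idh3b, had 2171 in RXRγ mice and 2073 in control mice (log2 ratio 0.07) at its single probe set above 250. The name of that probe set, 1418886_s_at, ends in _s_at, which marks oligonucleotides shared with other transcripts, so this value is uncertain. The γ subunit, Idh3g, averaged 3382 in RXRγ mice and 2843 in control mice. It was the highest of the 9 enzymes by log2 ratio (0.25), with 0.22 and 0.28 at its 2 probe sets.

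The log2 ratios of the 3 subunits of this enzyme thus spanned 0.50. For comparison, the log2 ratios of different probe sets of the same gene spanned a median of 0.18 and a 90th percentile of 0.53 over the 409 genes with several probe sets and a mean signal above 1000. Such spans come from the same 2 arrays and do not include differences between animals. The span of the subunits is one of gene means, whereas the spans within genes are of single probe sets, so the 2 measures are unlike. By single probe sets above 250, the subunits ran from -0.44 (1422500_at of Idh3a) to 0.28 (1416789_at of Idh3g).

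Idh2, the NADP-dependent isocitrate dehydrogenase, stood apart from all other members. Its log2 ratio was -2.01, and its difference from the mean of Mdh2, the next lowest member, was -1.64. This is larger in size than the 90th percentile of the spans within genes, which are of single probe sets. In the order of all 3780 genes it was in place 30 from the lowest. Of the 903 genes with a mean signal above 1000 on the brighter array, 7 were as low or lower, namely Myl3, Myh7, Aldh1a1, Gpcpd1, Fbxo32, Mylk4 and Idh2 itself. These were named after their values were seen. Their signals in RXRγ mice ran from 23.2 (Myl3) to 496.4 (Mylk4), so all 7 passed 1000 through the control array alone. Their count is a description only. The value of Idh2 rests on a single probe set, 1450048_a_at, which was above 250 on both arrays. A further probe set, 1453601_at, had 7.8 in RXRγ mice and 24.4 in control mice, too low for a fold. Under the 11 other ways of processing the signals, the log2 ratio of Idh2 ran from -2.10 to -1.83. The floor, the other cutoffs on the signal and the rules for probe sets could not change it, since 1 probe set is above 250. The value of -1.83 came from adding the dim probe set 1453601_at. The cytosolic NADP-dependent enzyme, Idh1, had 395.2 in RXRγ mice and 288.1 in control mice (log2 ratio 0.45, with 0.38 and 0.53 at its 2 probe sets). Its ratio was 0.36, under the threshold, with the medians of the arrays set equal. Both probe sets of Idh1 end in _s_at, a mark for oligonucleotides shared with other transcripts, so its value is uncertain.

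**Figure D2:**
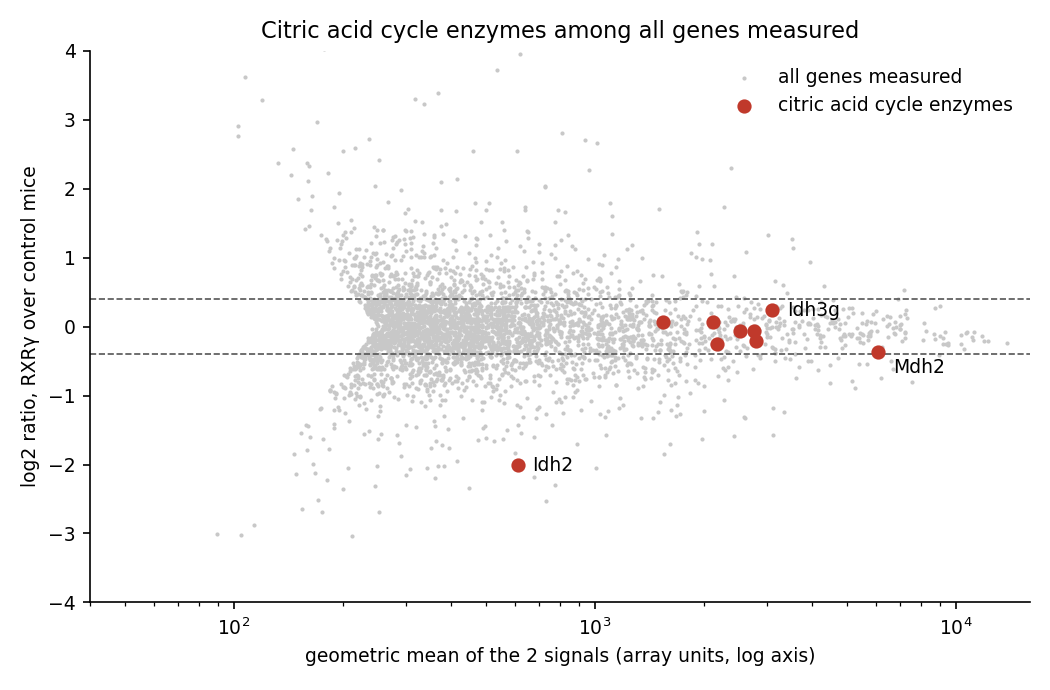
log2 ratio, RXRγ over control, against the geometric mean of the 2 signals (log axis, array units), 1 grey point per gene and red points for the 9 citric acid cycle enzymes. Dashed lines mark 0.4 in either direction, and 16 of the 3780 genes lie outside the axes. Idh2 lies at -2.01, while the other 8 lie between -0.37 (Mdh2) and 0.25 (Idh3g).

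The region before the start of Idh2 is shown because this is the member whose mRNA differed, and that of Fh1 because it is the only member with a match to the nuclear receptor hexamer AGGTCA. Both are the 250 bases before the annotated RefSeq start in GRCm38.p6, on the minus strand, 5′ to 3′, at chr7:80115351-80115600 for Idh2 and at chr1:175625636-175625885 for Fh1. Capitals mark the match.
Idh2: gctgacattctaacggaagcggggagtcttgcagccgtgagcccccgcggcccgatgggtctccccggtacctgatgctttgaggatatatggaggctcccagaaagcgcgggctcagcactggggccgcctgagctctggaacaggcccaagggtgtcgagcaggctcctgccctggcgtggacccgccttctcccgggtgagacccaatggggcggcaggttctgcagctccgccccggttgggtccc
Fh1: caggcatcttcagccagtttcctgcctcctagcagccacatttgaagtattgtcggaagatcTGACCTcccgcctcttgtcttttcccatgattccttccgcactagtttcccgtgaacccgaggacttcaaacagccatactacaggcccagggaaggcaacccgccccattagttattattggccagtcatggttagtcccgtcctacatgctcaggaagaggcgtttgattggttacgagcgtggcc

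RefSeq promoter windows were found for 8 of the 9 enzymes, all but Idh3a, with several start sites for Ogdh and 13 windows in all. Motifs were searched by exact letters on both strands. AGGTCA, which is bound by many nuclear receptors, was in 1 of the 13 member windows (Fh1, on the minus strand relative to the gene) and in 14.0% of all 32851 windows of this length. TCAAGGTCA, which is bound by the estrogen-related receptors and contains AGGTCA, was in none of the member windows and in 0.387% of all windows. AGGTCA repeated in the same direction with 1 base between the copies, the form bound by PPAR and RXR together, was in none of the member windows and in 0.0335% of all windows. CCGGAAGT, a form bound by GABPA and other ETS factors, was in none of them and in 2.88% of all windows. GCGCATGC, the core of the form bound by NRF1, was in 2 overlapping windows of Ogdh, as the same site, and in 2.26% of all windows. The Idh2 window held none of these letters, and its G and C content was 67.2%, against 52.8% for Fh1.

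The mRNAs of the enzymes of the middle of the cycle were near equal on the arrays. Ogdh, the dehydrogenase component of the 2-oxoglutarate dehydrogenase complex, had 1577 in RXRγ mice and 1500 in control mice (log2 ratio 0.07). Dlst, which encodes the succinyltransferase core of that complex, had 1053 in RXRγ mice and 1034 in control mice (log2 ratio 0.03). Dld, the dihydrolipoamide dehydrogenase that it shares with pyruvate dehydrogenase, had 1423 in RXRγ mice and 1314 in control mice (log2 ratio 0.12). The 3 components therefore differed by 0.03 to 0.12.

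Succinyl-CoA synthetase joins a common α subunit, Suclg1, with a β subunit that uses either ADP (Sucla2) or GDP (Suclg2). Suclg1 had 2697 in RXRγ mice and 2821 in control mice (log2 ratio -0.06). Sucla2 had 4491 in RXRγ mice and 3993 in control mice (log2 ratio 0.17), whereas Suclg2 averaged 406.3 in RXRγ mice and 534.6 in control mice (log2 ratio -0.52). The 2 probe sets of Suclg2 differed, at -0.74 and -0.29. With its brightest probe set alone, or with a brighter signal above 500 or both signals above 250, its log2 ratio was -0.29, under the threshold. Suclg2 thus passed through the dimmer probe set, which had 167.8 in RXRγ mice and 281.1 in control mice.

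Succinate is oxidized by succinate dehydrogenase, which is also complex II of the respiratory chain. Its subunit genes Sdha, Sdhb and Sdhd had log2 ratios of 0.03, -0.03 and 0.03, and Sdhc had one of -0.19. Fh1, the fumarase that follows, had 2458 in RXRγ mice and 2568 in control mice (log2 ratio -0.06) at 1 probe set.

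Mdh2, the mitochondrial malate dehydrogenase that regenerates oxaloacetate, averaged 5348 in RXRγ mice and 6916 in control mice. Both of its probe sets were lower in RXRγ mice, 1416478_a_at with 5390 against 6389 in control mice and 1433984_a_at with 5305 against 7443 in control mice. Its log2 ratio (-0.37) did not reach the threshold, but it was -0.47 with the medians of the arrays set equal and -0.49 with the brightest probe set alone. The cytosolic form, Mdh1, had 4687 in RXRγ mice and 4820 in control mice (log2 ratio -0.03), and its 3 probe sets ran from -0.23 to 0.27.

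Of 8 other measured genes of the cycle, 1, Suclg2, was lower by the threshold and none was higher, with a median log2 ratio of 0.03. With no filter on dim probe sets 2 of these 8 were higher, Dlst (0.41) and Dld (1.25), and 2 were lower, among them Sdha (-0.75). With both signals above 250, or with the brightest probe set of each gene, none was past the threshold. Over the 17 measured genes of the whole cycle, 2 were lower, Idh2 and Suclg2, and none was higher. These 17 genes had a median of -0.03, against -0.04 over all genes, of which 20.1% were lower and 16.8% were higher. The medians over the 9 and over the 8 lie near 0, and their signs change with the scaling of the arrays. With the medians of the arrays set equal they were -0.16 and -0.07, and with intensity-dependent centring they were 0.00 and 0.07. Setting the medians equal moved the median of all genes by -0.11.

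**Figure D3:**
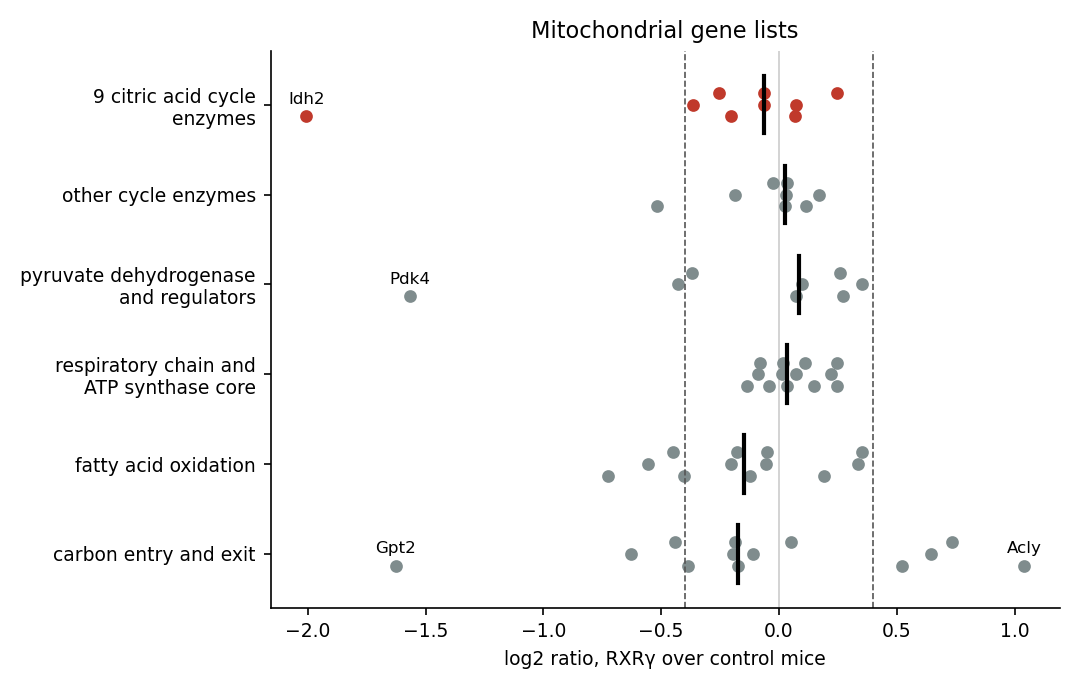
log2 ratio, RXRγ over control, of the measured genes in 6 mitochondrial and metabolic lists, 1 point per gene (red, the 9 enzymes), spread vertically only for legibility. Black bars are medians, and the dashed lines stand at 0.4 and -0.4. Idh2 (-2.01), Pdk4 (-1.57) and Gpt2 (-1.63) lie furthest to the left, and the 13 genes of the respiratory chain and ATP synthase all lie within 0.4.

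The pathways that feed the cycle and take up its electrons were compared in the same way, beside shares over all genes of 16.8% higher and 20.1% lower. Of 13 measured core genes of the respiratory chain and ATP synthase, none was past the threshold in either direction, with a median log2 ratio of 0.04 and a range from -0.14 (Uqcrfs1) to 0.25 (Uqcrc1 and Cyc1). The 2 nearest to 0 were Cox4i1, a subunit of cytochrome c oxidase (0.01), and Cycs, cytochrome c (0.02). These 13 genes spanned 0.38, against 0.61 for the 8 citric acid cycle enzymes other than Idh2.

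Of 12 measured genes of fatty acid oxidation, 4 were lower and none was higher, with a median of -0.15. The shares over all genes were 20.1% lower and 16.8% higher, and the count of 4 is a description only. The lower genes were Echs1, the short-chain enoyl-CoA hydratase (795.4 in RXRγ mice and 1316 in control mice), the acyl-CoA dehydrogenase genes Acadvl (-0.56) and Acadm (-0.45), and Cpt2, a carnitine palmitoyltransferase (-0.40). With quantile normalization 3 were lower, and with intensity-dependent centring 2 were lower and 2 were higher. The values nearest to 0 were those of Etfdh (-0.05), which passes electrons to ubiquinone, and Hadhb (-0.06), a subunit of the trifunctional protein.

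Pyruvate dehydrogenase and its regulators gave 8 measured genes, of which 2 were lower and none was higher, with a median of 0.09. Among all genes 20.1% were lower and 16.8% were higher. Pdk4, a kinase that inactivates the complex, had 1811 in RXRγ mice and 5362 in control mice (log2 ratio -1.57). Dlat, the acetyltransferase core, had a log2 ratio of -0.43, with -0.52 to -0.31 at 3 probe sets, and -0.38 with intensity-dependent centring. Pdhx, a binding component of the complex, had -0.37, and -0.47 with the medians of the arrays set equal. The catalytic subunit genes Pdha1 and Pdhb had 0.27 and 0.35, and Pdhb was past the threshold with that centring (0.43). The 2 nearest to 0 were Pdp1, a phosphatase of the complex (0.07), and the kinase gene Pdk2 (0.10). Another kinase gene, Pdk1, had 0.26, under the threshold, and 0.26 at each of its probe sets. The study lists Pdk1 as up-regulated on its microarray and describes it as markedly increased by real-time PCR. Its list was made by other rules, and why the values differ was not tested.

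Genes for the entry and exit of carbon at other steps went both ways. Of 21 listed, 13 were measured, 4 were higher and 3 were lower in RXRγ mice, with a median of -0.17. By the same rule 16.8% of all genes were higher and 20.1% were lower. Gpt2, the mitochondrial alanine transaminase that links pyruvate with 2-oxoglutarate, averaged 322.7 in RXRγ mice and 955.6 in control mice, and 3 of its 4 probe sets ran from -1.60 to -1.40. The remaining one read 136.2 in RXRγ mice, too low for a fold, and 573.3 in control mice, and it enters the gene's mean. The malic enzyme genes Me3 (-0.63) and Me1 (-0.44) were the other lower genes, and Me1 was at -0.40 and -0.39, just under the threshold, with quantile normalization and with intensity-dependent centring. Got2, the mitochondrial aspartate transaminase that links oxaloacetate with 2-oxoglutarate, had 3124 in RXRγ mice and 1887 in control mice (log2 ratio 0.74). Its cytosolic counterpart Got1 had 2758 in RXRγ mice and 3607 in control mice (log2 ratio -0.39), and was past the threshold with the medians of the arrays set equal (-0.49). Glud1, glutamate dehydrogenase, had 1003 in RXRγ mice and 698.7 in control mice (log2 ratio 0.52). Acly, which cleaves citrate in the cytosol, and Bdh1, an enzyme of ketone body use, had log2 ratios of 1.04 and 0.64. The 2 nearest to 0 were Mpc1, a subunit of the pyruvate carrier (0.05), and Oxct1, which activates ketone bodies (-0.11).

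Cytosolic and side forms of cycle enzymes were measured for 3 of 5 genes. Besides Idh1, the cytosolic aconitase gene Aco1 was higher (521.1 in RXRγ mice and 393.3 in control mice, log2 ratio 0.41), and it was under the threshold with the medians of the arrays set equal (0.31), with a pseudocount of 32 (0.38) and with no filter (0.02). Its only probe set above 250 ends in _x_at, a mark for oligonucleotides that can bind other transcripts. Without _x_at and _s_at probe sets neither Idh1 nor Aco1 was measured and none of the forms was higher. Of 9 genes of cofactor and lipoate supply, 3 were measured and none was past the threshold. Nnt, which makes mitochondrial NADPH from NADH as Idh2 does from isocitrate, had 1356 in RXRγ mice and 1547 in control mice (log2 ratio -0.19). Nampt, of NAD synthesis, had 0.14, and Lias, the lipoate synthase, had -0.21.

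Regulators of mitochondrial genes were measured for 5 of 10 genes listed, and 4 were higher in RXRγ mice. Over all genes 16.8% were higher, and the count of 4 is a description only. The count of 4 fell to 3 with both signals above 250 and with the brightest probe set of each gene. It was 2 with a pseudocount of 32 and 1 with the medians of the arrays set equal. Tfam, which is needed for transcription of mitochondrial DNA, had 864.8 in RXRγ mice and 476.7 in control mice (log2 ratio 0.86). The coactivator gene Ppargc1a (0.44), the estrogen-related receptor gene Esrra (0.46) and Gabpa (0.44) were close to the threshold, and all 3 were under it with the medians of the arrays set equal (0.34 to 0.36). With no filter on dim probe sets, Esrra was at -0.11. Ppargc1b had 0.06. On the same arrays the 9 citric acid cycle enzymes had a median of -0.06.

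Genes of slow muscle fibres were lower together with Idh2. Over all genes the median log2 ratio was -0.04, and 20.1% were lower. All 8 listed slow fibre genes were measured and were lower by the threshold, with a median log2 ratio of -1.64. Of these, Tnnt1, Tnni1 and Myl3 passed the filter through the control array alone, so their count is a description only. With both signals required to be above 250, 5 were measured, all lower, with a median of -1.55, and with no filter 7 of the 8 were lower. Myh7, the slow myosin heavy chain, had 303.2 in RXRγ mice and 1754 in control mice (log2 ratio -2.53). Atp2a2, the slow calcium pump, had 507.8 in RXRγ mice and 907.8 in control mice (log2 ratio -0.72). Tpm3 had a mean of -0.70 but went both ways by probe set, from -1.14 to 0.06. The smallest signal was that of Myl3, a slow myosin light chain, with 23.2 in RXRγ mice, too low for a fold, and 1747 in control mice. The summed signal of the 8 genes, by the brightest probe set of each, was 3217 in RXRγ mice and 12090 in control mice, and none of them was under 150 on both arrays. Of 10 fast fibre genes, 2 were lower, Myh2 (-0.81) and Myh4 (-0.42), and none was higher. That count of lower genes was near the share over all genes (20.1%). The median was -0.22, with Tnnc2 as the highest (-0.17). The probe sets of Myh4 differed, at -0.77 and, for the brighter, -0.06. The count of lower genes was 1 with the brightest probe set of each gene, with quantile normalization and with intensity-dependent centring, and 3 with the medians of the arrays set equal, with no filter and with a filter of 150. The summed signal of these was 101003 in RXRγ mice and 118972 in control mice. The part of the slow fibre genes in the difference of Idh2 was not tested.

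**Figure D4:**
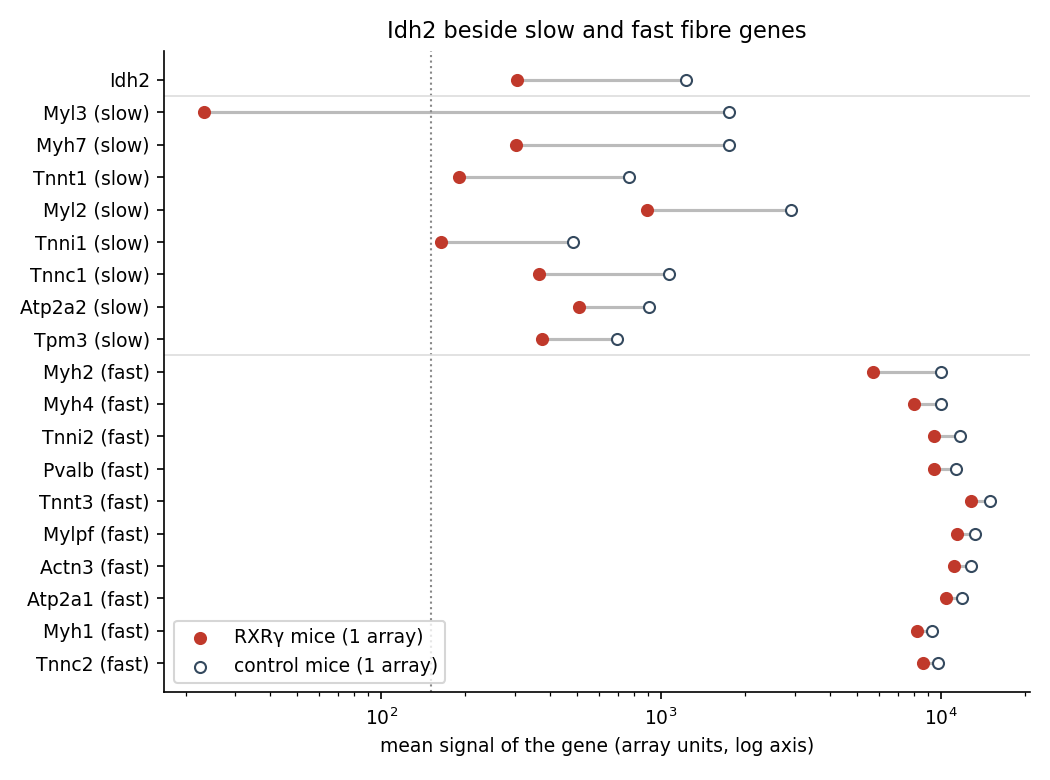
Mean signal of Idh2, of 8 slow fibre genes and of 10 fast fibre genes in RXRγ mice (filled circles) and control mice (open circles), in array units on a log axis, with a dotted line at 150. Idh2 (304.9 in RXRγ mice and 1224 in control mice) lies in the same range as Myh7 (303.2 in RXRγ mice and 1754 in control mice), and every filled circle lies left of its open circle.

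Muscle genes were among the brightest on both arrays, and the skeletal actin gene Acta1 gave 10440 in RXRγ mice and 10999 in control mice. Of 8 genes that define skeletal muscle fibres, 3 were lower by the threshold, Ckm, Ttn and Myh4, against 20.1% over all genes. The log2 ratios ran from -0.75 (Ckm, at -1.39 and -0.11 by probe set) to 0.38 (Des). Ttn (-0.63) had -0.17 and -0.12 at its brightest probe sets, and -1.17 and -1.23 at its dimmest. Tnnc2, Tnni2 and Myh4 are also among the fast fibre genes above, so the counts of the 2 lists are not separate. With the brightest probe set of each gene none of the 8 was lower. With quantile normalization and with intensity-dependent centring 2 were lower, and 4 were lower with the medians of the arrays set equal, with no filter and with a filter of 150. With that centring 1 was higher. The 4 cardiac genes stayed under 150 on both arrays. The measured genes of adipocytes ran from 0.17 (Adipoq) to 0.22 (Retn), those of fibroblasts from -0.22 (Col1a1) to 0.24 (Pdgfra), and those of macrophages lay at 0.24 (Lyz2) and 0.25 (Csf1r). The 5 adipocyte genes summed to 6494 in RXRγ mice and 5948 in control mice, and the 5 fibroblast genes to 10260 in RXRγ mice and 9492 in control mice. The 5 macrophage genes summed to 1290 in RXRγ mice and 1078 in control mice, and the 5 endothelial genes, none of which reached 250, to 640.6 in RXRγ mice and 799.6 in control mice. Of the 2 red cell genes annotated, both were under 150 on both arrays, and Mbp, a myelin gene, had a log2 ratio of 0.09. Rxrg, the gene of the transgene, read 9172 in RXRγ mice and 334.5 in control mice, as the labels have it.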

How the data were processed

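RNA pools of skeletal muscle were hybridized to Affymetrix MG430 arrays, 1 per genotype. The deposited values are linear intensity signals that the authors made with Affymetrix Gene Chip software from perfectly matched and mismatched oligonucleotides. They had been scaled, since both arrays have a mean of 100.0 once the lowest and highest 2% of values are left out, and how was not stated in the sources. Low signals carry the least precision, and the number of arrays limits all differences.

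Probe sets were named through a single gene symbol of the platform annotation. A gene's log2 ratio (RXRγ over control mice) is the mean over those of its probe sets whose brighter signal is above 250. The threshold of 0.4 on the log2 scale and the signal of 250 follow the study's methods. The study also required the software to call a transcript present, and applied this fold to list increased genes. Here no such call was used, and the threshold was applied in both directions to means over probe sets. The genes past it are therefore not the study's list. No fold is given for a single probe set with a signal under 150, although such probe sets enter the means of genes and the medians of lists. No p-values were computed. The genes named are all 9 members and, from each list, the genes past the threshold and those nearest to 0, and for the fibre and cell type lists the lowest and highest. Further genes were named to show a complex or an enzyme pair. The members and lists were chosen with earlier results of these data known.

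The alternatives were 3 scalings, a pseudocount, a floor, 4 filters, 2 rules for probe sets and a threshold of 1. Quantile normalization and intensity-dependent centring used limma 3.58.1 in R 4.3.3. The gene summary was tested on simulated data. Other steps used Python 3.11.15, pandas 2.3.3, numpy 2.4.6 and matplotlib 3.10.9. Promoter sequences are from RefSeq (GRCm38.p6). All columns of the deposited table were used.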

Additional observations from a re-analysis of the deposited data

How the results depend on the processing

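Of 144 values recomputed under the alternatives for the 9 enzymes, their counts and the medians, 140 did not move. For ratios and medians, this means on the same side of 0.4 and within a factor of 1.5. For counts of members, it means equal or within a factor of 1.5. The count of higher members was 0 under every alternative. Idh2, the only member past the threshold, did not change sign. Ratios near 0 did, namely those of Idh3b (-0.03 to 0.17), Ogdh (-0.03 to 0.17), Suclg1 (-0.16 to 0.0007) and Fh1 (-0.16 to 0.0008). The 4 values outside the 140 concern Mdh2. Its log2 ratio was -0.47 with the medians of the arrays set equal and -0.49 with the brightest probe set of each gene, against -0.37, and the count of lower members was then 2 in place of 1. The cause was not tested. Idh2 was lower under all 11 alternatives (-2.10 to -1.83) and at a threshold of 1, and Idh3b has no value without _x_at and _s_at probe sets. The floor, the cutoffs of 150, of 500 and of 250 on both arrays, and the probe set rules left Idh2 at -2.01. They cannot change a value that rests on 1 bright probe set, so part of the 140 was fixed in advance. Over all genes, 636 were higher and 760 lower. These counts were 490 and 986 with the medians set equal, which moved the median of all genes by -0.11. They were 982 and 1028 with a brighter signal above 150, 340 and 438 above 500, 371 and 501 above 250 on both arrays, and 5587 and 4454 with no filter. No paired analysis was possible because each genotype has 1 array, and for the same reason no replicate could be left out.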
